A study of Mus musculus with 12 samples.

Results

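Potassium channel genes were described across all libraries of the data set. Members were the genes whose symbol consists of Kcn, 1 or more further letters and a final number, without Kcne2, Kcnj8 and Kcnj13. The rule gave 89 of 52636 genes, and 70 of them reached a mean of 1 TPM over the 12 libraries. TPM is a transcript abundance that takes the length of the transcript into account and sums to one fixed total per library. Of the other 19 members, Kcnk16 and Kcnj1 were listed at 0 TPM in every library. The members nearest to 1 TPM were Kcne4 at 1.01 and Kcnj14 at 1.08 above it, and Kcnh6 at 0.82 and Kcnmb1 at 0.684 below it.

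RNA was taken from the hippocampus of 12 wild-type C57BL6/J mice of 18 weeks, with 3 males of high extinction level, 3 males of low, 3 females of high and 3 females of low. Extinction is the fading of a learned fear response after repeated safe exposure to its trigger. Every library is 1 mouse, so the spread between libraries includes that between animals. All differences are given as low minus high extinction. The authors also deposited a DESeq2 comparison of the extinction levels within each sex, and its fold changes were reversed in sign to read the same way.

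Potassium channels let potassium leave or enter the cell and so set the resting potential, the shape of the action potential and the firing rate of neurons. Pore-forming subunits are opened by voltage (Kv), by calcium or sodium, or conduct at rest (inward rectifiers and 2-pore channels). Auxiliary subunits change the gating or trafficking of the pores, and silent Kv subunits form no channel alone but modify other Kv pores when they assemble with them.

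Per library, 18170 to 19062 genes were at 1 TPM or more, and transcripts derived from ribosomal RNA took 7.04% to 23.5% of all TPM. All 6 markers of hippocampal excitatory neurons exceeded 1 TPM, with a summed level of 2076 to 2778 TPM. The summed level of 8 choroid plexus markers ran from 25.7 to 3503 TPM, with both extremes among the high-extinction mice. In females, 11 thalamus and habenula markers, 10 of them at 1 TPM, summed to 165.3 to 170.0 TPM at low and 107.8 to 134.0 TPM at high extinction. Pericyte and smooth muscle markers (8 of 8 at 1 TPM) summed to 188.4 to 219.6 against 142.9 to 168.7 TPM there, and meningeal fibroblast markers (6 of 6) to 90.9 to 103.6 against 82.4 to 84.7 TPM. In males the meningeal fibroblast markers went the other way, at 42.6 to 93.0 TPM at low and 103.7 to 123.7 TPM at high extinction. In females the excitatory neuron markers summed to 2142 to 2308 TPM at low and 2462 to 2574 TPM at high extinction, but the other 5 overlapped without Slc17a7, at 1503 to 1707 against 1585 to 1633 TPM. The microglia markers (6 of 6) lay at 103.8 to 119.8 against 99.0 to 103.2 TPM and overlapped without Cx3cr1, which had 23.4 TPM in low replicate 3 and 3.31 to 4.89 TPM in the other females. The part of these markers in the differences below was not tested. In bulk tissue, fewer cells of a type and less RNA per cell cannot be told apart.

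Voltage-gated pores supplied the largest share of potassium channel transcript on average. In male low replicate 2 the Kv auxiliary genes summed higher, at 943 against 885 TPM. The Kv auxiliary sum ran from 466 to 943 TPM per library. Its most abundant gene, Kcnab2, differed widely in TPM between libraries of the same group, as given below. The 30 Kv pore-forming genes, 25 of them at 1 TPM, held 36.6% of the members' TPM, and the 10 Kv auxiliary genes held 28.5%. The 13 inward rectifiers held 12.7%, the 14 2-pore channels 6.58%, the 10 silent subunits 5.32% and the 4 BK auxiliary genes 2.41%. The 8 genes classed here with calcium- or sodium-activated channels, Kcnu1 (Slo3) among them, held 7.92%. Summed over all members, the level was 2474 TPM on average and ran from 2137 to 2751 TPM per library. It was 2404 ± 235 in high and 2377 ± 250 in low males, and 2576 ± 199.7 in high and 2537 ± 231 in low females (mean ± SD, n = 3), so the groups overlapped within each sex.

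Single genes spanned a wide range. There were 20 members above 50 TPM, 27 from 10 to 50, 23 from 1 to 10 and 19 below 1, and the median was 14.6 TPM. The 12 highest held 51.1% of the members' TPM. Kcnab2, the cytosolic Kv beta 2 subunit, was highest at 365 TPM. The Kv4 partner Kcnip2 had 110 TPM, and Kcnab1, another cytosolic beta subunit, had 90.8 TPM.

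**Figure D1:**
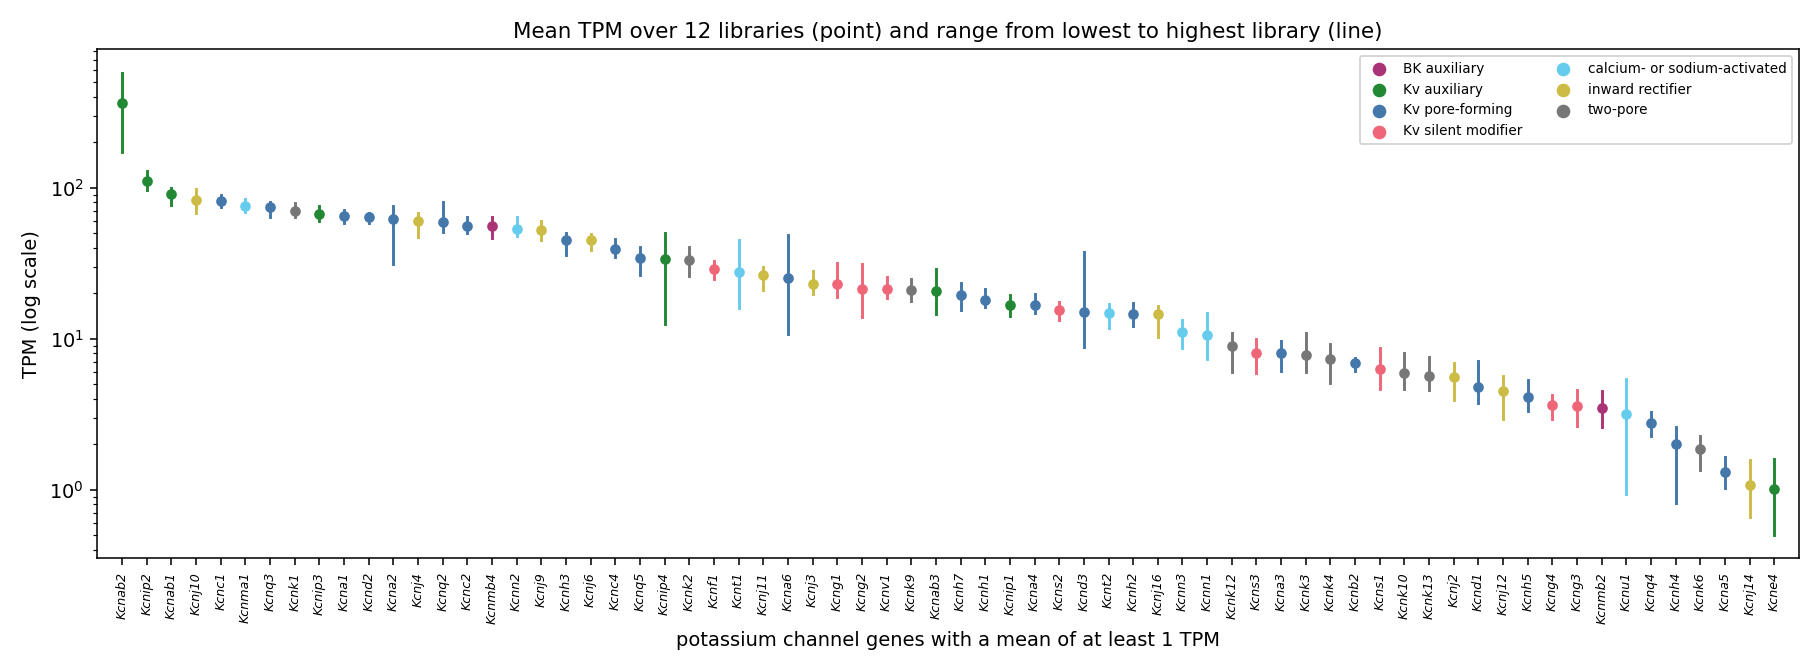
Level of 68 of the 70 potassium channel genes at 1 TPM or more on average, ordered by mean and coloured by class; points are means over 12 libraries and lines run from the lowest to the highest library, on a log axis. Kcnab2 leads at 365 TPM, and Kcnip4, Kcna6, Kcnd3 and Kcnu1 have the longest lines.

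Among the pores, Kcnc1 (a fast Kv3 pore) had 82.0 TPM, Kcnq3 (a subunit of the M-current) 74.0, Kcna1 (an axonal Kv1 pore) 64.4 and Kcnd2 (the dendritic A-type pore Kv4.2) 63.9 TPM. Kcnj10, the inward rectifier of astrocytes, had 82.3 TPM. The G protein-coupled subunits Kcnj9, Kcnj6 and Kcnj3 had 52.0, 44.7 and 23.1 TPM, while Kcnj5, best known from heart, had 0.257. Kcnk1 led the 2-pore channels at 70.5 TPM. Kcnma1, the BK pore opened by calcium and voltage, had 75.8 TPM, and Kcnmb4, its neuronal beta subunit, had 55.3 TPM. Kcnn2, a small-conductance calcium-activated channel, had 52.9 TPM. Kcnq1 and Kcne1, partners in the heart, had 0.244 and 0.0169 TPM.

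The spread between libraries differed from gene to gene. Of the 70 genes, 34 had a highest library under 1.5-fold above the lowest, and 13 exceeded 2-fold (27.0% of all genes at 1 TPM did). The median ratio was 1.52 for members and 1.55 for all genes at 1 TPM. Kcnd2 ran from 58.6 to 67.5 TPM and Kcnc1 from 74.5 to 89.5 TPM.

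The comparison of low with high extinction asked which of these genes differed between mice that extinguish fear weakly and strongly. Few did. Kcng1 was lower and Kcnt1 higher at low extinction in females in the authors' deposited table, and no member passed there in males. Kcnf1 was the member whose low and high libraries did not overlap, in the same direction, in both sexes. Kcnh1 was separated in males only. It was 1 of 6 members, of 70, that lay lower at low extinction there without overlap, where 7.32% of all genes at 1 TPM did.

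In males 0 of 76 members with an adjusted p in the authors' deposited table passed 0.05, where 0.504% of all genes did. Kcnh1 alone lay under 0.1, where 0.863% of all genes did. At an unadjusted p under 0.05 there were 1 higher and 6 lower among the 70 members at 1 TPM, against 2.67% and 4.91% of all genes at that level. In females 2 of 71 in the authors' deposited table passed, where 0.857% of all genes did, 0.569% higher and 0.288% lower. With Kcnf1, 3 members lay under 0.1 there, where 1.28% of all genes did. At an unadjusted p under 0.05 that table held 2 higher and 13 lower, against 3.59% and 5.09% of all genes at 1 TPM.

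On the TPM values themselves no member passed with limma and Benjamini-Hochberg adjustment. Of all genes, 0.0% passed in males, 0.0107% in females, 0.0% for the average over the sexes and 0.00541% for the male minus female change. At an unadjusted limma p under 0.05 there were 4, 3, 8 and 4 members, where 6.29%, 8.83%, 7.7% and 7.92% of all genes lay.

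When the fold changes of the authors' deposited tables were combined over both sexes by inverse variance, 4 of 86 members passed at an adjusted p under 0.05, where 0.472% of all genes did. They were 3 lower, Kcng1, Kcnf1 and Kcnh1, and 1 higher, Kcnt1, where 0.191% and 0.281% of all genes passed. The mean normalized count behind them in the authors' deposited tables ran from 1846 to 3296. Those shares are over 32429 genes, while 18499 reached a mean of 1 TPM. The combination leans on the smaller SE, for Kcng1 0.08 in females against 0.22 in males. Kcng1 and Kcnt1 had already passed in females, so these calls are not independent of that table. With limma on TPM the average over the sexes was -0.28 for Kcng1, -0.14 for Kcnf1, -0.16 for Kcnh1 and 0.46 for Kcnt1, with limma adjusted p-values of 0.474 to 0.56.

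**Figure D2:**
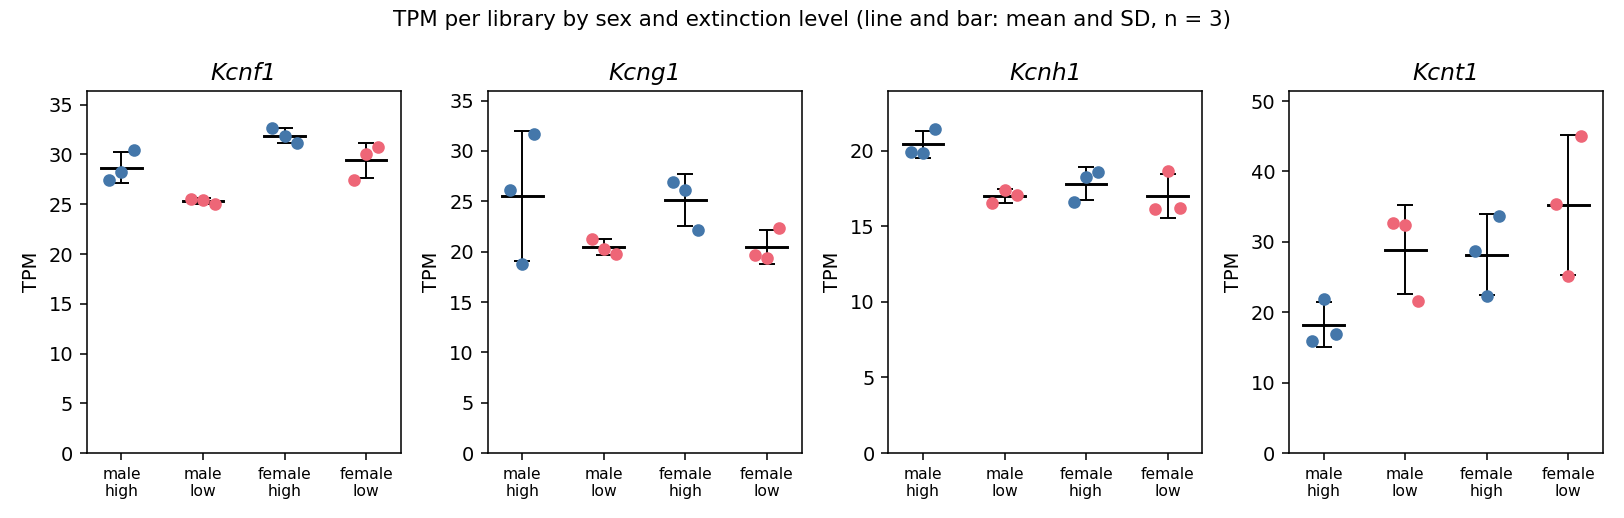
TPM of Kcnf1, Kcng1, Kcnh1 and Kcnt1 in each library by sex and extinction level, with the mean and SD of 3 mice. The 3 low-extinction points of Kcnf1 lie below the 3 high-extinction points in both sexes, while those of Kcng1 overlap in both.

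Kcng1 (ENSMUSG00000074575.4, chromosome 2, positions 168260117 to 168281736, minus strand, GRCm38) encodes Kv6.1, a silent subunit. In high males it had 26.1, 18.8 and 31.7 TPM in replicates 1 to 3, and in low males 21.3, 20.3 and 19.8. In high females it had 27.0, 26.2 and 22.1 TPM, and in low females 19.6, 19.4 and 22.4. The low libraries were tightly grouped in both sexes, but high replicate 2 in males and high replicate 3 in females lay within or below their range, so the groups overlapped. The authors' deposited female table gave a level 1.33-fold higher at high extinction, with a log2 change of -0.41 (SE 0.08, DESeq2 adjusted p = 0.000188). Their male table gave -0.35 (SE 0.22, DESeq2 adjusted p = 0.851), and the difference between the sexes was 0.07 (SE 0.24).

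On log2(TPM + 1) the Kcng1 change was -0.28 in each sex, with an exact two-sided permutation p of 0.4 in males and 0.2 in females, where 3 against 3 cannot go below 0.1. Over both sexes the average was -0.28 with an exact p of 0.045 over 400 assignments, whose smallest possible p is 0.005. Kcng1 alone had this test and was picked with earlier results of these data known, so the unadjusted p is no independent support. Without male high replicate 3, the highest library, the average was -0.20 with an exact p of 0.095, and in 9 of 12 such omissions the exact p was 0.06 to 0.095.

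Kcnf1 (ENSMUSG00000051726.6, chromosome 12, positions 17172100 to 17176888, minus strand) encodes the silent subunit Kv5.1. In males its level was 27.4, 28.2 and 30.4 TPM at high and 25.5, 25.4 and 24.98 TPM at low extinction. In females it was 32.6, 31.8 and 31.1 TPM at high and 27.4, 30.1 and 30.8 TPM at low extinction. Every low library lay below every high library of its sex, though in females the nearest values were 30.8 and 31.1 TPM. This was the case for 1 of 70 members and 0.189% of all genes at 1 TPM. The reverse order in both sexes was seen in 0 members and 0.854% of all genes. The authors' deposited tables gave log2 changes of -0.16 (SE 0.07, DESeq2 adjusted p = 0.51) in males and -0.20 (SE 0.06, DESeq2 adjusted p = 0.0915) in females. Combined from the authors' deposited tables, the change was -0.18 (SE 0.05, adjusted p = 0.0241), 1.14-fold higher at high extinction.

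Kcnh1 (ENSMUSG00000058248.12, chromosome 1, positions 192190774 to 192510159, plus strand) encodes the voltage-gated pore EAG1. Male high libraries had 19.9, 19.8 and 21.4 TPM, and male low libraries 16.5, 17.4 and 17.1. Female high libraries had 16.6, 18.2 and 18.6 TPM, and female low libraries 16.1, 18.7 and 16.2. The males were separated by extinction level and the females were not. The summed meningeal fibroblast markers of males were separated too, but singly only Col1a2 and Col3a1 were, while Dcn, Igf2, Lum and Col1a1 overlapped. The male change was -0.24 (SE 0.07, DESeq2 adjusted p = 0.0939) and the female change -0.15 (SE 0.08, DESeq2 adjusted p = 0.528) in the authors' deposited tables. Their combined value was -0.20 (SE 0.05, adjusted p = 0.0391). The annotated span of Hhat overlaps this gene on the opposite strand, and whether their exons overlap was not examined. With no stated use of strand in the counting, reads from any shared exon stretch cannot be told apart. In all, the spans of 37 of 89 members overlap that of an annotated gene on the opposite strand.

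The stretches upstream of Kcnf1 and Kcnh1 are shown, and both genes were lower at low extinction in the combined test. That of Kcng1, also lower there, is not shown. Each is the 250 bases before the RefSeq start in GRCm38.p6, 5′ to 3′ on the gene's strand, with CpG dinucleotides in capitals, at chr12:17176889-17177138 (minus) for Kcnf1 and chr1:192190527-192190776 (plus) for Kcnh1.
Kcnf1: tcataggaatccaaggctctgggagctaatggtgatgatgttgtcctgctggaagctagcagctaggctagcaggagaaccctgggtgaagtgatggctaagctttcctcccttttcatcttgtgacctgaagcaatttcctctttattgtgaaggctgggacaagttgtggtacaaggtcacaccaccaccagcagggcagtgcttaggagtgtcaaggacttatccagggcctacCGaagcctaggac
Kcnh1: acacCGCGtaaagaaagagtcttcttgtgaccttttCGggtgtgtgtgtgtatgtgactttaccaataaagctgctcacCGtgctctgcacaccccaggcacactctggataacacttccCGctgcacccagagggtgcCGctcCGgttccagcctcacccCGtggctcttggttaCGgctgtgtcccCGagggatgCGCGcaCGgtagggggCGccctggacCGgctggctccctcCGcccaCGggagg
Kcnf1 holds 1 CpG and 51.2% GC, and 7.87% of all RefSeq promoter stretches hold fewer CpG. Kcnh1 holds 17 CpG and 62% GC, and 76.5% hold fewer. Both strands were searched for TGACG (the CRE half-site, in 17.8% of all 32851 stretches of that length), TGANTCA (AP-1, 6.75%), GCGNGGGCG (Egr, 4.7%), TATAAA (12.4%) and CACGTG (6.02%). None of these letters occurred in either window.

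Kcnt1 (ENSMUSG00000058740.14, chromosome 2, positions 25863734 to 25918273, plus strand) encodes Slack, a pore opened by intracellular sodium. Male high libraries had 15.9, 21.9 and 17.0 TPM, and male low libraries 32.7, 32.4 and 21.6. Female high libraries had 28.7, 22.3 and 33.7 TPM, and female low libraries 35.4, 25.2 and 45.1. Low libraries were mostly higher, with 1 narrow overlap in males (21.6 against 21.9 TPM) and a wide one in females. In the authors' deposited tables the change was 0.21 (SE 0.10, DESeq2 adjusted p = 0.625) in males and 0.27 (SE 0.07, DESeq2 adjusted p = 0.0350) in females. Combined from the authors' deposited tables, it was 0.25 (SE 0.06, adjusted p = 0.0120). The TPM change with limma was larger, 0.63 (SE 0.19) in males and 0.29 (SE 0.23) in females. Kcnt1 has 15 annotated transcripts of 532 to 6639 bases, and the part of transcript choice in its TPM was not tested.

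The silent subunits at 1 TPM numbered 9, and 7 had a negative log2 change in females and 5 in males in the authors' deposited tables. Over all genes at 1 TPM, 54.1% were negative in females and 52.1% in males. Kcng3, which encodes Kv6.3, was at -0.43 (SE 0.19) in males and 0.07 (SE 0.15) in females in the authors' deposited tables. Kcns2 and Kcnv1, the most abundant members of the Kv9 and Kv8 families, had 0.10 and -0.06 in males and -0.04 and 0.01 in females there. None of these passed.

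**Figure D3:**
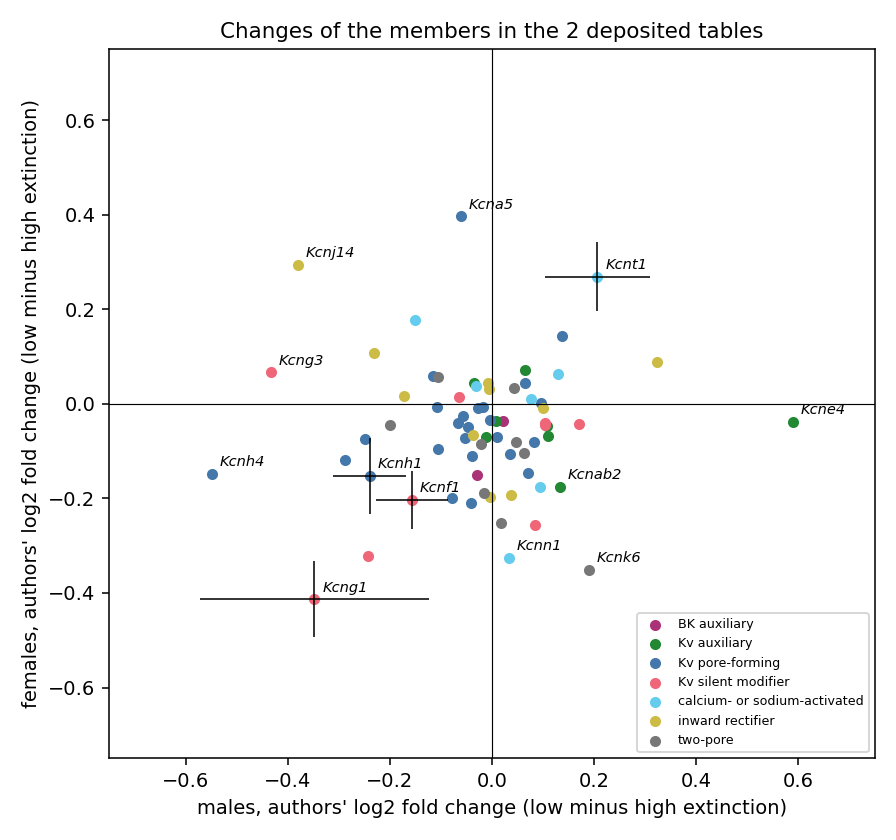
Log2 fold change (low minus high extinction) of the 70 potassium channel genes at 1 TPM in the authors' deposited male table (horizontal) and female table (vertical), coloured by class, with SE bars for Kcng1, Kcnf1, Kcnh1 and Kcnt1. Most points lie within 0.2 of 0, with 26 negative in both tables and 9 positive in both. Of all 18499 genes at 1 TPM, 5470 were negative in both and 4339 positive in both.

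Kv pores had mostly small negative values. Of 25 such genes in the authors' deposited tables, 18 were negative in males (median -0.05) and 20 in females (median -0.07), while over all genes at 1 TPM 52.1% and 54.1% were negative. Over all 70 members 39 were negative in males (median -0.01) and 48 in females (median -0.04). Those medians for all genes were -0.01 in each table. On TPM the female median was 0.03 for members and 0.06 for all genes, so the sign of small female changes depends on the scaling.

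Named pores did not pass singly. In males the EAG-family genes Kcnh2, the ERG1 pore, and Kcnh4, an ELK pore, stood at -0.29 (SE 0.11) and -0.55 (SE 0.24) in the authors' deposited table, and Kcnq5, an M-current subunit, at -0.25 (SE 0.10). In females the ELK pore Kcnh3 was at -0.21 (SE 0.08) and the Kv3 pore Kcnc4 at -0.20 (SE 0.08) in the authors' deposited table. Kcna4, an A-type Kv1 pore, was at 0.14 in both of the authors' deposited tables, and Kcna5 at 0.40 (SE 0.26) in females from a low mean of 1.3 TPM. The DESeq2 adjusted p in the authors' deposited tables was 0.286 or more for each of these. High and low libraries of Kcnh2 did not overlap in males, at 15.4 to 17.3 against 12.1 to 13.8 TPM. This order held in males for 6 of 70 members and 7.32% of all genes at 1 TPM.

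No abundant pore named here passed in the authors' deposited tables. Kcna1 had -0.05 in each sex, and Kcnc1 had -0.04 in males and -0.11 in females. Kcnq3 had 0.10 and 0.00, and Kcnd2 0.03 and -0.11. Their SE was 0.05 to 0.08. In females Kcnc1 and Kcnd2 were among the 13 lower at an unadjusted p under 0.05, and their DESeq2 adjusted p was 0.491 and 0.463 in the authors' deposited table.

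Auxiliary subunits gave no call. Kcnab2 was at 0.13 (SE 0.07) in males and -0.18 (SE 0.07) in females, both from the authors' deposited tables, while the TPM change with limma was -0.02 (SE 0.48) in males and -0.10 (SE 0.40) in females. The difference of 0.31 had an adjusted p of 0.384. Kcnab1 had 0.11 and -0.05, Kcnip2 0.11 and -0.07, and Kcnip3 0.01 and -0.04 there. Kcne4, from the lowest level, had 0.59 (SE 0.39) in males. The BK subunit Kcnmb4 had -0.03 and -0.15 in the authors' deposited tables.

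Calcium- and sodium-activated pores were mixed. In the authors' deposited tables Kcnn1 was at -0.33 (SE 0.11, DESeq2 adjusted p = 0.130) and Kcnn3 at 0.18 (SE 0.08, DESeq2 adjusted p = 0.39) in females. These encode small-conductance channels behind the afterhyperpolarization. On TPM the female Kcnn1 change was 0.01 (SE 0.14) with limma, so the change in the authors' deposited table was not seen there. Kcnn3 libraries of females lay at 10.4 to 11.9 TPM at high and 12.7 to 13.1 at low extinction, without overlap. This order held in females for 7 of 70 members and 14.2% of all genes at 1 TPM. Kcnt2, the Slick pore related to Kcnt1, had 0.13 in males and 0.06 in females by the authors' deposited tables, and Kcnma1 -0.03 and 0.04. Kcnu1, the sperm channel Slo3, was placed in this class by family and not by its gating. It lay at 4.32 to 5.43 TPM in high and 0.957 to 2.11 in low females, without overlap, and at 0.932 to 4.95 TPM in males. Its female change was -1.26 (SE 0.19, adjusted p = 0.332) with limma on TPM and -0.18 (SE 0.24) in the authors' deposited table.

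Inward rectifiers and 2-pore channels held no member past the threshold. Kcnj10 had -0.01 and 0.03 and Kcnk1 -0.02 and -0.08 in the authors' deposited male and female tables. Kcnj2, a strong inward rectifier, had 0.32 (SE 0.16) in males, and Kcnk6 0.19 (SE 0.21) in males and -0.35 (SE 0.18) in females.

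Without overlap between extinction levels, 2 members lay above and 6 below at low extinction in males, where 4.19% and 7.32% of all genes at 1 TPM did. In females 7 lay above and 3 below, where 14.2% and 1.98% did. For the male minus female change, computed from the authors' deposited tables, 0 of 86 members passed at an adjusted p under 0.05, where 0.148% of all genes did.

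A few members took low and high levels within the same group, and they are named after their values were seen. Kcnip4, a Kv4 partner, had 12.5 to 15.2 TPM in 5 libraries and 44.9 to 50.4 TPM in 7. In high males it had 12.5, 14.4 and 48.1 TPM, in low males 44.9, 46.3 and 47.4, in high females 13.4, 49.6 and 50.4 and in low females 50.01, 13.5 and 15.2. Kcnd3, the Kv4.3 pore, had 8.84 to 13.4 TPM in 10 libraries and 34.8 and 37.4 in high female replicate 3 and low female replicate 2. Kcnip4 and Kcnd3 were 2 of 70 members with a gap over 1 on the log2 scale and at least 2 libraries on each side, and 1.05% of all genes at 1 TPM had one. Kcna6, an axonal Kv1 pore, ran from 10.8 to 48.2 TPM and Kcnab2 from 171 to 577.

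The fold changes of these genes had small errors in the authors' deposited tables. Their log2 SE was 0.07 in males and 0.06 in females for Kcnip4, 0.10 and 0.05 for Kcnd3, 0.08 in each for Kcna6 and 0.07 in each for Kcnab2 in those deposited tables of the authors. Annotated transcripts number 8 for Kcnip4, of 766 to 2394 bases, 5 for Kcnd3, 4 for Kcna6 and 14 for Kcnab2, against 1 for Kcnf1. The part of transcript choice in the split was not tested.

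**Figure D4:**
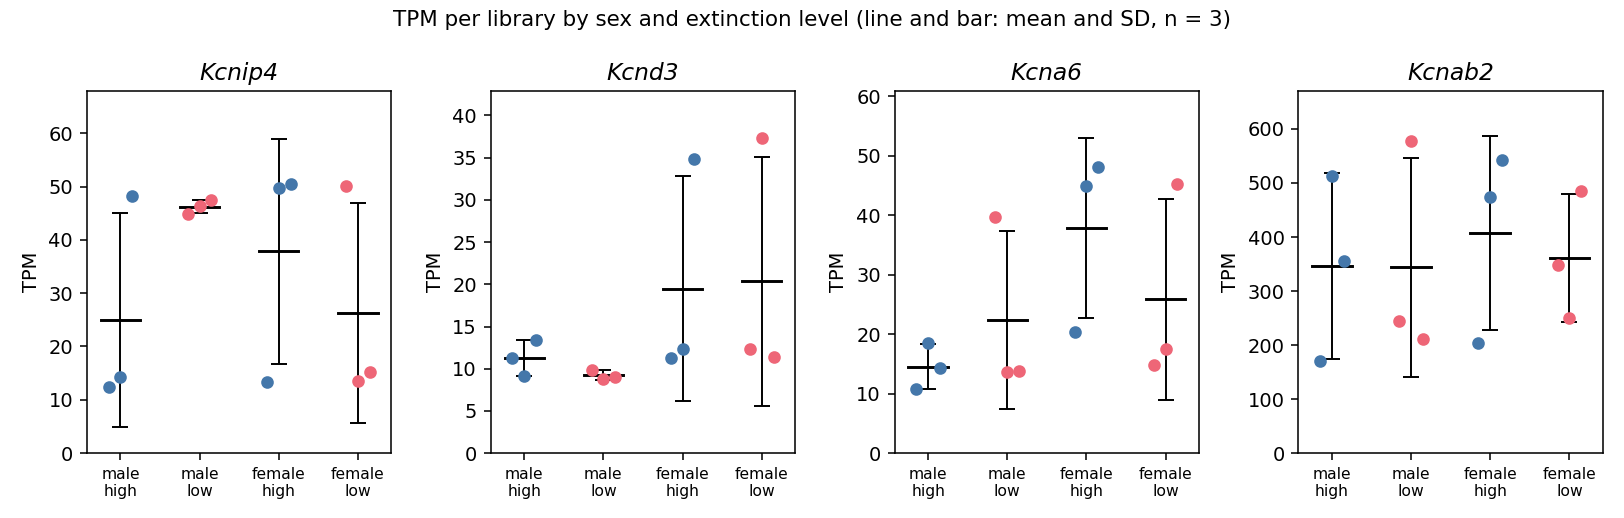
TPM of Kcnip4, Kcnd3, Kcna6 and Kcnab2 in each library by sex and extinction level, with the mean and SD of 3 mice. High and low values occur within the same group, as in high females for Kcnip4 (13.4 against 49.6 and 50.4 TPM).

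Between the sexes, whose tables were made separately, levels were compared without a test. Kcna1 and Kcne4 lay higher in all 6 females than in all 6 males, as 2 of 70 members, where 1.37% of all genes at 1 TPM did, and 0 members lay lower, where 0.0595% did. Kcna1 ran from 65.4 to 71.4 TPM in females and 58.4 to 62.5 in males, and Kcne4 from 1.14 to 1.60 and 0.499 to 0.957. Without ribosomal RNA-derived genes in the scaling, Kcna1 overlapped and Kcne4 remained separated, where 0.459% of all genes were.

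Partners of the channels were examined in a list. Of 40 partner, scaffold and regulator genes, Kcne2, Kcnj8 and Kcnj13 among them, 37 were at 1 TPM and 0 passed in the authors' deposited male or female table, where 0.504% and 0.857% of all genes did (median log2 0.02 and -0.04). Among the most abundant were the calmodulins Calm2 and Calm3 at 1547 and 1098 TPM, the scaffold gene Dlg4 at 427 and the GABA-B receptor gene Gabbr1 at 372.5 TPM.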

How the data were processed

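Hippocampal RNA of 12 mice was enriched for polyadenylated RNA and sequenced, per the labels' protocols. The authors deposited TPM per mouse, in a table for each sex. With DESeq2, per the file headers, the authors computed the mean normalized count (a signal), the log2 fold change, its SE, the test statistic (a score) and each p-value with its adjusted form within each sex. Tools named in the submitters' processing notes are StringTie 1.3.3b, HTSeq, Bowtie2, TopHat2 and DESeq2, and the builds are GRCm38.p5 and mm10; which tool made which file, and use of strand, are not given in the sources used here. TPM keeps no depth, so depth per library is unknown; mean normalized counts summed to 42.6 M (males) and 43.4 M (females).

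The fold change's direction is not named. Called genes went against the TPM difference (low minus high) in 101 of 101 cases in males and 133 of 134 in females, so it was multiplied by -1. Members and lists were chosen with earlier results of these data known. Named members were Kcng1, called members, the smallest p-values per direction, the most abundant overall and per subfamily, those separated in both sexes and those around 1 TPM.

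Genes at a mean of 1 TPM were tested on log2(TPM + 1), a scale that shrinks the changes of low genes, with limma 3.58.1 (R 4.3.3, trend, Benjamini-Hochberg at 0.05) within each sex and over 12 libraries. Replicate numbers follow record order. Of simulated log2 changes of 0.5, the male and female fits called 18% each, the average 62% and the interaction 26%; changes of several sizes were planted together, which loosens the threshold. Alternatives were other pseudocounts, filters, scalings and fits, and leaving out each library. Fold changes of the 2 deposited tables were combined by inverse variance. A few genes are not reported here. Genes were matched to GENCODE M21 (89 of 89 members). Python 3.11.15, scipy 1.17.1 and matplotlib 3.10.9 were used.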

Additional observations from a re-analysis of the deposited data

How the results depend on the processing

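No paired analysis was possible because the labels carry no replicate numbers. With limma, leaving out 1 library gave 0 to 1 members called in males, the 1 being Kcnip4 without male high replicate 3. Combining the authors' deposited fold changes called 4 members where limma called 0 for the average. An adjusted p under 0.1 in the authors' deposited male table called 1. The Kcng1 average ran from -0.38 to -0.20 over the omissions, and its unadjusted exact permutation p exceeded 0.05 in 9 of 12. Kcnab2 in males, -0.02 as reported, changed sign with median-of-ratios scaling (0.0037) and ran from -0.47 to 0.33 without single libraries. Kcnn1 in females, 0.01 as reported, was -0.029 without ribosomal RNA-derived genes, -0.053 with median-of-ratios scaling, and from -0.12 to 0.11 without single libraries. In females median-of-ratios scaling moved the median of all genes from 0.06 to -0.00 on the log2 scale. Among named members, 25 of 380 male, 40 of 390 female and 39 of 624 average values changed sign, but none for Kcng1, Kcnf1, Kcnh1 or Kcnt1. For the sexes, 1 member (Kcne4) lay above in all females after removing ribosomal RNA-derived genes, an alternative chosen after seeing the data. The marker sums without Slc17a7 or Cx3cr1 were also chosen after seeing the data. The cause of these changes was not tested.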
